A study of Mus musculus with 24 samples.

Results

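The nuclear-encoded subunits of the mitochondrial respiratory chain were taken by gene symbol from the count table of a mouse aorta RNA-seq study. The names kept were those of the Nduf, Sdh, Uqcr, Cox4 to Cox8 and Atp5 families, without Cox8b, Cox7a1, Ndufa4l2 and pseudogene symbols. The rule found 83 of 25941 rows, and 80 of them passed the filter on low counts that left 14528 genes to test. The 3 rows not tested were Cox7b2, Atp5l2 and a second Ndufb8 entry, with 3, 28 and 2 reads over all 24 libraries. Of the 80 subunits, 35 belonged to complex I, 4 to complex II, 8 to complex III, 15 to complex IV and 15 to complex V, the ATP synthase. The remaining 3 carried a matching name but are not chain subunits: Cox4nb, now called Emc8, belongs to a complex of the endoplasmic reticulum, and Atp5sl and Atp5s are mitochondrial accessory factors.

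The tissue was the thoracic aorta of adult male wildtype C57BL/6 mice aged 10 to 12 weeks. For 3 weeks the mice ate plain chow (control), chow with celecoxib at 100 mg/kg/day, or chow with rofecoxib at 50 mg/kg/day, both of which are selective inhibitors of cyclooxygenase-2, the inducible enzyme of prostaglandin synthesis. Every mouse, controls included, also received interleukin-1β, an inflammatory cytokine, at 10 ug/kg into the peritoneum 4 hours before sacrifice at zeitgeber time 11. No group without interleukin-1β was analysed here, and the dose differed between the drugs. Each group had 8 libraries, called biological replicates in the labels, and p-values measure the spread between these libraries.

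Complexes I and II feed electrons from NADH and succinate into ubiquinone, complex III passes them to cytochrome c, and complex IV passes them to oxygen. Complexes I, III and IV pump protons, and complex V uses the proton gradient to make ATP. Most subunits are nuclear genes that are transcribed together with the mitochondrial biogenesis programme, and they are abundant in heart, skeletal muscle and brown fat, where Ucp1 lets protons leak back to make heat. Brown fat surrounds the thoracic aorta of the mouse, while the vessel wall itself is mostly smooth muscle, fibroblasts and endothelium.

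Each library held 21668798 to 21700121 reads, a spread of 0.145%. Smooth muscle markers summed to 35140 to 54910 CPM (counts scaled to a common library size) in every library, so the labelled tissue was present, and 12 of 14 brown adipocyte markers passed the filter on low counts. The other brown adipocyte markers, Zic1 and Lhx8, were near 0, with 29 and 189 reads over all 24 libraries. Celecoxib replicate 2 stood apart by its cardiac muscle markers, which summed to 1121 CPM against a group median of 100.0, and control replicate 3 by skeletal muscle markers, at 141.7 against 25.7 CPM. In bulk tissue, a change in the number of cells of a type cannot be told apart from a change in RNA per cell.

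Promoters are shown because most of the subunits had higher values with rofecoxib, 1 for each complex and each the member with the smallest p for rofecoxib against control that has an entry. RefSeq promoter sequences on GRCm38.p6, from 250 bases before to 50 after the start site, were matched to 66 of the 80 members. Those with no entry included Ndufa2, Ndufb9, Ndufs1, Sdhc, Uqcrb, Uqcrc2, Uqcrq, Cox4i1, Cox4i2, Cox6a2, Cox6c, Atp5a1 and Cox4nb. The sequences run 5′ to 3′ on the strand of the gene, with capitals on matches to 6 motifs searched on both strands: GCGCA and GCGC with any 1 base between for NRF1, CCGGAAG for GABP, AAGGTCA for the oestrogen-related receptors, AAGATGGC for YY1, CCAAT for NFY and TATAAA for the TATA box.
Ndufa11, complex I, chr17:56717512-56717811, plus strand: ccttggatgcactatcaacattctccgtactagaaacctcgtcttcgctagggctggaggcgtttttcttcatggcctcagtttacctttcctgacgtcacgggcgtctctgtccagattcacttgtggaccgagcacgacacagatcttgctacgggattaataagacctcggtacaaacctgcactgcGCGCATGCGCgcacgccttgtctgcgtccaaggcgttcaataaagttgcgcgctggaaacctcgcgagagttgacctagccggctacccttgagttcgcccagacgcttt
Sdhd, complex II, chr9:50603800-50604099, minus strand: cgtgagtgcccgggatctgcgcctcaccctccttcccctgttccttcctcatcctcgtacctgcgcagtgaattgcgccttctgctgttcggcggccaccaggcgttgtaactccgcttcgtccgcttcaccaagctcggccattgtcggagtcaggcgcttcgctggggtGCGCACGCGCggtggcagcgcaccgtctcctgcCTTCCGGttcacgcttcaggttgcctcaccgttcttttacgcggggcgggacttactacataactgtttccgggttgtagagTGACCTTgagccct
Uqcr11, complex III, chr10:80406772-80407071, minus strand: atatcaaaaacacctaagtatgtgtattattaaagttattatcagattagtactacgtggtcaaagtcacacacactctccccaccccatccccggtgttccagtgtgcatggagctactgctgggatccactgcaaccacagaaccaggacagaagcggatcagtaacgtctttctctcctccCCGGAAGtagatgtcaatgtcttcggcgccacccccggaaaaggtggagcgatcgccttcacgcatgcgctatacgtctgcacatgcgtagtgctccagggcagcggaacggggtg
Cox7a2, complex IV, chr9:79759804-79760103, minus strand: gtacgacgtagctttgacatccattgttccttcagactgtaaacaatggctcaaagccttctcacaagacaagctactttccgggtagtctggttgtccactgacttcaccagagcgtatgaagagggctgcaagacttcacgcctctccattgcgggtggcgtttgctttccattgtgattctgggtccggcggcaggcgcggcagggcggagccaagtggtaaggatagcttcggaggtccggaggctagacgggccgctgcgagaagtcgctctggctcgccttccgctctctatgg
Atp5f1, complex V, chr3:105959214-105959513, minus strand: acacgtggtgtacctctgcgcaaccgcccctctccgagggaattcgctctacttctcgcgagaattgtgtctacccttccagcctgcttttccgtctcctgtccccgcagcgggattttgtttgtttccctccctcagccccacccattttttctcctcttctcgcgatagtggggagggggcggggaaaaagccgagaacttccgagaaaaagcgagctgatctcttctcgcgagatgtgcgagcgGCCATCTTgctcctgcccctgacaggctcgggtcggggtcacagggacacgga
The capitals mark an NRF1 motif in Ndufa11, NRF1, GABP and oestrogen-related receptor motifs in Sdhd, a GABP motif in Uqcr11 and a YY1 motif at the start site of Atp5f1. None of the 6 motifs was found in the Cox7a2 window. Shares were counted by gene, with a match in any promoter entry of the gene. The NRF1 motif was found for 17 of the 66 members (25.8%), against 5.19% of all 27025 genes with an entry. The GABP motif was found for 24.2% of these members and 9.93% of all genes, the YY1 motif for 16.7% and 3.19%, and the oestrogen-related receptor motif for 12.1% and 5.38%. CCAAT was found for 43.9% and 41.1%, and the TATA box for 7.58% and 15.7%. Such a match is a description of the letters and not evidence of a bound site.

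In control aortas the most abundant subunits per exon length were Atp5b, the catalytic beta subunit of the ATP synthase, at 499.0 ± 124 RPKM (reads per kilobase of exon, scaled as CPM; SD, n = 8), and Cox6a1 at 388.1 ± 88.7 RPKM. Cox6a1 is the widely expressed isoform of a small complex IV subunit. The complex I subunit with the highest level was Ndufb9, at 154.0 ± 25.6 RPKM, and in complex III it was Uqcrh, the hinge protein, at 226.9 ± 22.8 RPKM. Sdha, the flavoprotein that oxidises succinate, led complex II at 114.5 ± 32.6 RPKM. The isoforms used mainly in other tissues were low: Cox6a2, the heart and muscle isoform, was at 0.54 ± 0.92, Cox6b2, the testis isoform, at 1.53 ± 0.40, and Cox4i2, the lung and hypoxia isoform, at 2.53 ± 0.48 RPKM. All of these levels divide by the union of annotated exons, so a gene with a long, little-used exon reads low.

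The subunits varied unequally among the 8 control libraries. The coefficient of variation of the CPM was lowest for Atp5j (3.39%) and Cox7a2l (3.78%), while Ndufa10, Sdha and Uqcrfs1 stood at 30.2%, 28.5% and 28.5%. Atp5j encodes the coupling factor 6 of the ATP synthase stalk, Cox7a2l a protein that helps complexes III and IV join in supercomplexes, and Uqcrfs1 the Rieske iron-sulfur protein of complex III. The mean log2 CPM of the subunits of each complex, called its level here, was highest in control replicate 4 and lowest in control replicate 7 in all 5 complexes. Rofecoxib replicate 7 was the highest rofecoxib library in all 5.

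**Figure D1:**
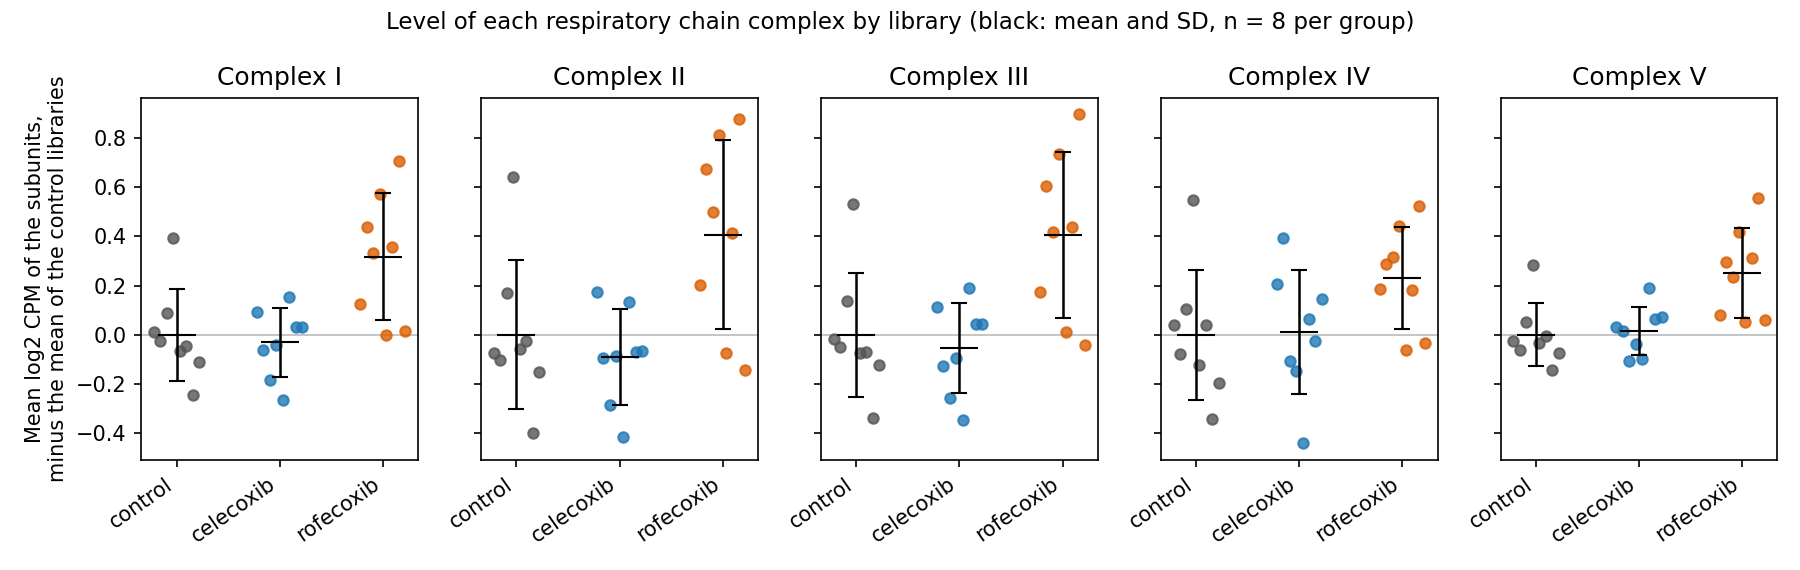
Level of each complex (mean log2 CPM of its tested subunits) in each library, drawn as the difference from the mean of the 8 control libraries; points are libraries in order of replicate number, black bars the mean and SD. The rofecoxib points lie mostly above 0 in every complex and overlap the control points, among which replicate 4 is the highest, and the celecoxib points scatter around 0.

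The level of complex I was 5.75 ± 0.19 in control, 5.72 ± 0.14 in celecoxib and 6.07 ± 0.26 in rofecoxib aortas (mean log2 CPM, SD, n = 8 each). Complex II was at 7.10 ± 0.30, 7.01 ± 0.19 and 7.50 ± 0.38, and complex III at 6.61 ± 0.25, 6.55 ± 0.18 and 7.01 ± 0.34, in the same order. Complex IV was at 5.45 ± 0.26, 5.46 ± 0.25 and 5.68 ± 0.21, and complex V at 6.89 ± 0.13, 6.90 ± 0.10 and 7.14 ± 0.18. The plot of levels by library shows the same order in the 5 complexes, with rofecoxib above the other groups and celecoxib near control. All 8 rofecoxib libraries lay above the control median in complexes I, III and V, and 6 of 8 did in complexes II and IV. The groups overlapped in every complex, since 3 rofecoxib libraries in complexes I, II and III, 4 in complex V and 0 in complex IV were above every control. The complex IV level includes Cox6a2, which was at 1.81 CPM in control replicate 4 and 0 to 0.683 in the other controls. It was at 19.4 CPM in celecoxib replicate 2 and 0 to 1.27 in the other celecoxib libraries. The part of Cox6a2 in that level was not tested.

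The first comparison asked which subunits differed between rofecoxib and control aortas. Subunits of complexes I, III, IV and V were among those that rose: 25 of the 80 members were called higher and 0 lower by edgeR's quasi-likelihood test (Benjamini-Hochberg adjusted p below 0.05). Among all 14528 genes 3.88% were called higher and 3.06% lower, 6.94% in all. The calls were in 13 of 35 subunits of complex I, 0 of 4 of complex II, 3 of 8 of complex III, 4 of 15 of complex IV and 5 of 15 of complex V. An unadjusted p under 0.05 was reached by 67 members on the higher side, against 16.4% of all genes. On the lower side it was reached by 1, against 11.8% of all genes. The median log2 fold change of the members was 0.33, a 1.26-fold difference, beside 0.02 over all genes, and 77 of the 80 were above 0. By complex the median was 0.32, 0.49, 0.40, 0.33 and 0.28 from I to V.

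**Figure D2:**
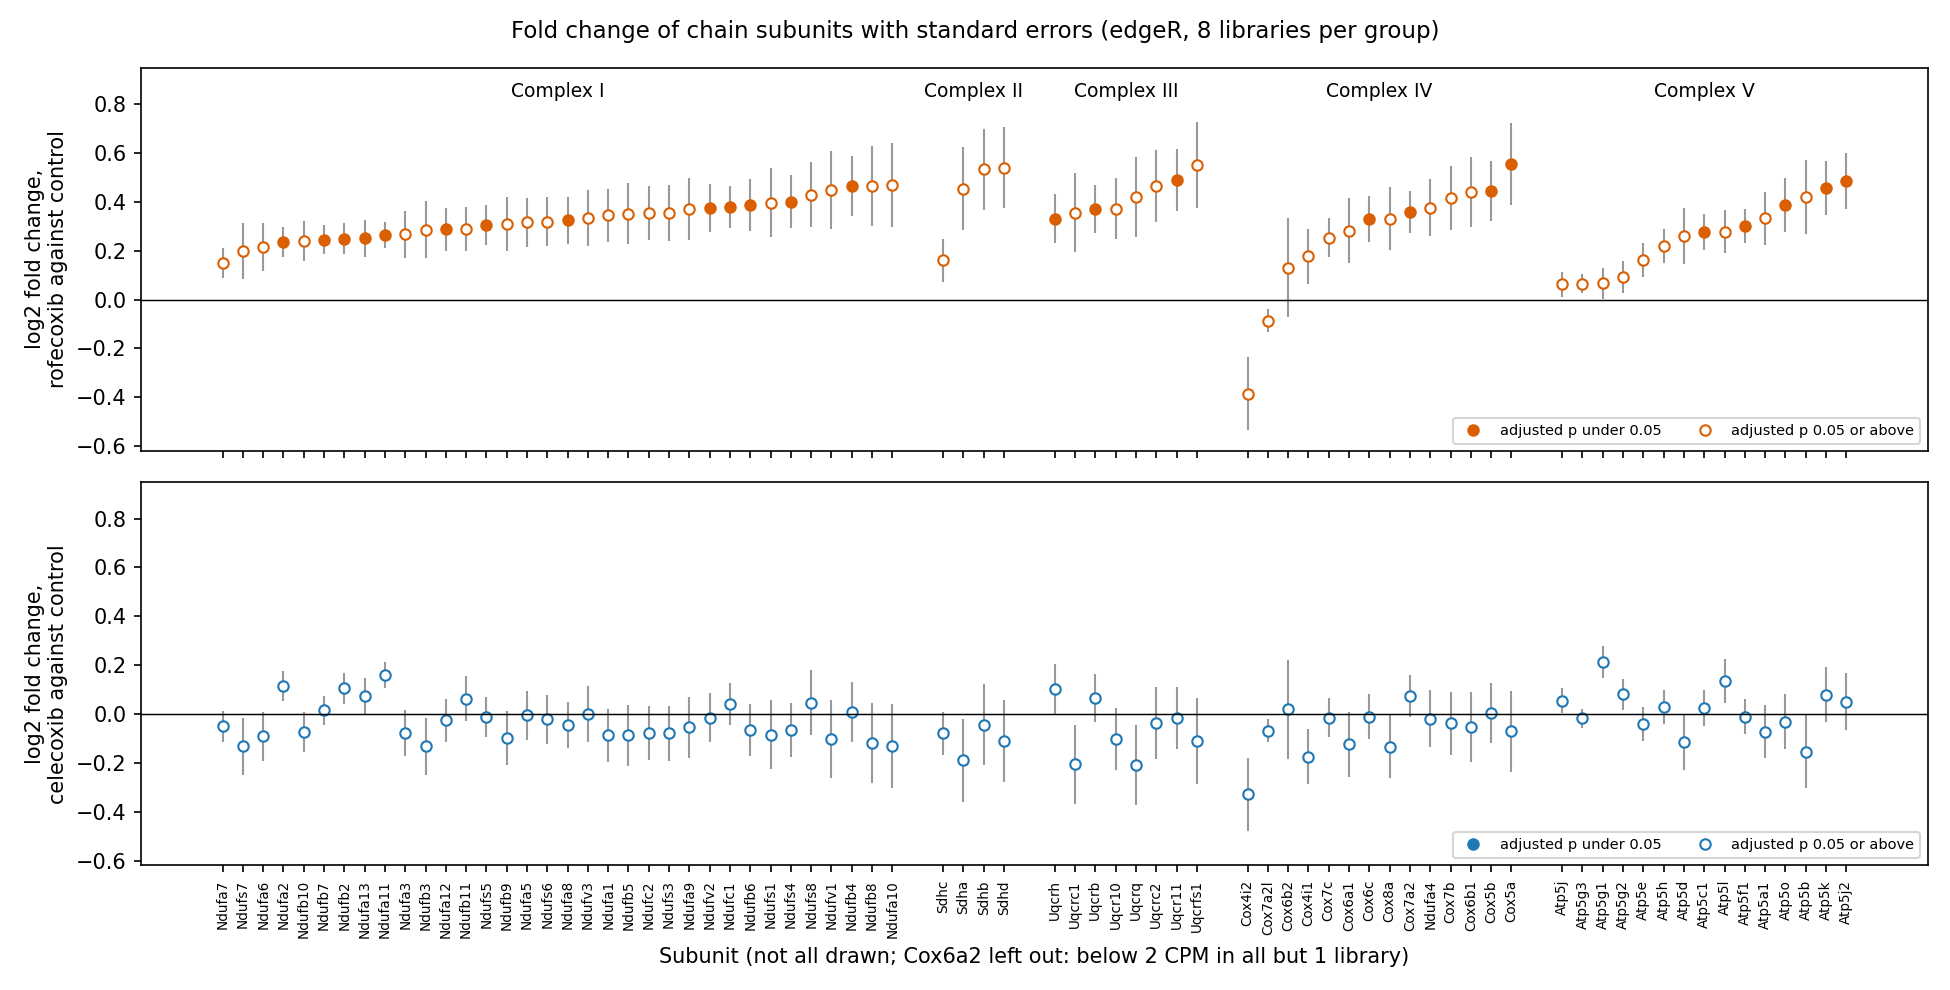
Log2 fold change of the chain subunits drawn, with standard errors, for rofecoxib (upper) and celecoxib (lower) against the same 8 control libraries, ordered by the rofecoxib value within each complex; filled points passed an adjusted p of 0.05. With rofecoxib nearly all points lie above 0 and 25 are filled, with celecoxib none is filled; Cox4i2 and Cox7a2l lie below 0 in both panels.

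Among the complex I subunits, Ndufa11, a membrane-arm subunit, had the smallest p (chromosome 17, 56856983 to 56863873 on mm9, ENSMUSG00000002379). It ranged from 41.0 to 49.88 CPM in control with a median of 48.1, from 48.0 to 59.0 with celecoxib with a median of 51.9, and from 49.95 to 63.4 with rofecoxib with a median of 58.1. All 8 rofecoxib libraries were above every control, by a margin of less than 1 CPM at its narrowest, and the celecoxib libraries overlapped both groups. With rofecoxib the log2 fold change was 0.26, with an SE of 0.05 and an edgeR adjusted p of 0.0095. It was the only member whose rofecoxib and control libraries did not overlap, and 0.275% of all genes tested were separated in that direction.

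Ndufc1, a small accessory subunit of the membrane arm, ranged from 25.7 to 32.9 CPM in control (median 29.6) and from 29.7 to 50.7 with rofecoxib (median 38.2). Rofecoxib replicate 7 was the highest, and 6 of 8 were above every control. This was a log2 difference of 0.38 (SE 0.09, edgeR adjusted p = 0.015). Other accessory subunits that rose included Ndufs5 at 0.31 (SE 0.08), Ndufa8 at 0.32 (SE 0.09), Ndufa12 at 0.29 (SE 0.09), Ndufa13 at 0.25 (SE 0.07), Ndufb4 at 0.46 (SE 0.12), Ndufb6 at 0.39 (SE 0.11), Ndufb7 at 0.24 (SE 0.06), Ndufb2 at 0.25 (SE 0.06), Ndufa2 at 0.23 (SE 0.06) and Ndufs4 at 0.40 (SE 0.11). Ndufs4 is needed for a late step of complex I assembly, and its loss causes a mitochondrial encephalopathy in mice. Of the core subunits that carry the flavin and iron-sulfur centres, Ndufv2 rose by 0.38 (SE 0.10) and was called. Ndufv1, which binds NADH, was at 0.45 (SE 0.16, edgeR adjusted p = 0.076), a larger fold change than that of Ndufv2 with a larger standard error.

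Complex II, which also belongs to the tricarboxylic acid cycle, had the largest median fold change and no call. Sdhd, one of its membrane anchors, ranged from 63.0 to 147 CPM in control (median 84.0) and from 81.5 to 183 with rofecoxib (median 131). Control replicate 4 lay above 5 of the 8 rofecoxib libraries, so the groups overlapped widely. On the log2 scale Sdhd was at 0.54 (SE 0.17, edgeR adjusted p = 0.051). Sdhb, the iron-sulfur subunit, was at 0.53 (SE 0.17, adjusted p = 0.052), Sdha at 0.45 (SE 0.17, adjusted p = 0.088) and the other anchor, Sdhc, at 0.16 (SE 0.09, adjusted p = 0.23).

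In complex III, Uqcr11, the smallest subunit, had the smallest p. It ranged from 40.2 to 72.4 CPM in control (median 51.0) and from 59.5 to 106 with rofecoxib (median 71.3), and 4 of 8 rofecoxib libraries were above every control. It rose by 0.49 on the log2 scale (SE 0.13, edgeR adjusted p = 0.026). Uqcrb, which binds ubiquinone, rose by 0.37 (SE 0.10) and Uqcrh by 0.33 (SE 0.10). The Rieske protein gene Uqcrfs1 was at 0.55 (SE 0.18, adjusted p = 0.055), and the core proteins Uqcrc1 and Uqcrc2 were at 0.36 (SE 0.16) and 0.46 (SE 0.15), both uncalled.

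In complex IV the calls fell on Cox7a2, Cox5a, Cox5b and Cox6c. Cox7a2, the widely expressed isoform of subunit VIIa, ranged from 69.9 to 95.3 CPM in control (median 79.8) and from 82.4 to 132 with rofecoxib (median 101). Of the 8 rofecoxib libraries, 5 were above every control, and replicate 1 was the lowest. It rose by 0.36 on the log2 scale (SE 0.09, edgeR adjusted p = 0.020). Cox5a, a matrix-side subunit, had the largest fold change of all members, at 0.56 (SE 0.17, adjusted p = 0.044), while Cox5b rose by 0.44 (SE 0.12) and Cox6c by 0.33 (SE 0.09).

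The supercomplex factor Cox7a2l behaved differently from its paralogue: it ranged from 81.9 to 93.0 CPM in control and from 71.9 to 93.0 with rofecoxib, with medians of 87.8 and 82.7. Its log2 difference was -0.09 (SE 0.05, edgeR adjusted p = 0.22). Cox4i2 was at -0.38 (SE 0.15, adjusted p = 0.099) with rofecoxib and at -0.33 (SE 0.15) with celecoxib, and its widely expressed counterpart Cox4i1 was at 0.18 (SE 0.11) and -0.17 (SE 0.11). None of these differences passed the test. Both comparisons use the same control libraries.

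In complex V the calls were Atp5f1, Atp5j2, Atp5k, Atp5c1 and Atp5o. Atp5f1, now Atp5pb, is the b subunit of the peripheral stalk. It ranged from 141.0 to 183 CPM in control (median 154) and from 161 to 231 with rofecoxib (median 191), with 5 of 8 libraries above every control, and rose by 0.30 on the log2 scale (SE 0.07, edgeR adjusted p = 0.019). Atp5j2, the f subunit of the membrane part, rose by 0.49 (SE 0.12), Atp5k, the e subunit that helps the synthase form dimers, by 0.46 (SE 0.11), and Atp5c1, the rotating gamma subunit, by 0.28 (SE 0.07). The catalytic subunits Atp5a1 and Atp5b were at 0.33 (SE 0.11, adjusted p = 0.060) and 0.42 (SE 0.15, adjusted p = 0.077).

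The 3 genes that encode the same mature c subunit of the proton-driven ring were at lower values. Atp5g1, Atp5g2 and Atp5g3 were at 0.07 (SE 0.06), 0.09 (SE 0.06) and 0.06 (SE 0.04) on the log2 scale, none of them called. Atp5g3, the most abundant of the 3 per exon length at 207 RPKM in control, ranged from 141 to 159 CPM in control and from 150 to 165 with rofecoxib. The groups overlapped, with 2 rofecoxib libraries above every control.

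The size of the call depended on single libraries more than the fold changes did. Leaving out 1 library at a time, the count of members called for rofecoxib against control ran from 6 without rofecoxib replicate 7 to 64 without control replicate 4, where 2.62% and 12.3% of all genes were called. It was 40, 13, 9, 53 and 59 without rofecoxib replicates 1, 2, 4, 5 and 8, and 13, 7, 13, 11 and 7 without control replicates 1, 2, 5, 6 and 7. The share of all genes called moved too. It was 6.43%, 3.68%, 3.65%, 7.45% and 13.3% in these fits without a rofecoxib library. In those without a control library it was 3.19%, 2.45%, 4.08%, 3.45% and 2.91%. Without rofecoxib replicate 8, 58 of the 59 were higher and 1 lower. The median log2 fold change stayed between 0.27 and 0.39 over the 24 fits. Ndufa11, Ndufb7, Ndufc1, Cox7a2, Atp5f1 and Atp5j2 were called in all 24, while Cox5a was in 13 and Uqcrh in 9. DESeq2 called 46 members, beside 12.5% of all genes, and limma voom 63 higher and 1 lower, beside 16.9%. Within replicates 1 to 4 the median was 0.25 with 0 calls by edgeR (0.286% of all genes) and 36 members (45.0%) at an unadjusted p under 0.05, beside 18.3% of all genes. Within replicates 5 to 8 it was 0.39 with 2 calls (2.53%, beside 2.78% of all genes). There 61 members (77.2%) were at an unadjusted p under 0.05, beside 19.9% of all genes. The labels do not name these sets as batches.

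The second comparison asked which subunits differed between celecoxib and control aortas. No member was called by edgeR, beside 0.0344% of all genes (0.00688% higher, 0.0275% lower). DESeq2 and limma voom also called 0, beside 0.757% and 0.833% of all genes. An unadjusted p under 0.05 was reached by 3 members on the higher and 1 on the lower side, against 7.72% and 5.83% of all genes, 13.6% together. The median log2 fold change of the members was -0.04, beside 0.0014 over all genes, with 25 of 80 above 0. By complex it was -0.06, -0.10, -0.07, -0.04 and 0.02 from I to V. The sign of the median was not the same within the library sets: it was -0.17 in replicates 1 to 4 and 0.10 in replicates 5 to 8, where edgeR called 1 member (1.27%, beside 2.17% of all genes). It was also above 0 without control replicate 4, at 0.03 with 52 members above 0, and at 0.0004 without celecoxib replicate 5.

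The 4 members with an unadjusted p under 0.05 were Atp5g1, Ndufa11, Cox4i2 and Cox6a2. Atp5g1 ranged from 44.1 to 52.8 CPM in control (median 47.2), from 46.0 to 60.3 with celecoxib (median 56.0) and from 44.0 to 59.0 with rofecoxib (median 48.0). Celecoxib replicate 1 lay within the control range and the other 7 above it. No member was separated between celecoxib and control, beside 0.0895% of all genes on the higher side. On the log2 scale Atp5g1 was at 0.21 with celecoxib (SE 0.06, edgeR adjusted p = 0.20), and Ndufa11 at 0.16 (SE 0.05, adjusted p = 0.23). The 95% interval of the celecoxib difference ran from -0.45 to 0.22 for Ndufb8 and from -0.46 to 0.23 for Sdhd. The rofecoxib values of 0.46 and 0.54 lie outside, but have errors of their own and use the same controls. This is therefore no test between the drugs, which are compared directly below. The doses differed.

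Cox6a2 had the largest value, 2.90 on the log2 scale (SE 1.14, edgeR adjusted p = 0.28), and it came from 1 library. Celecoxib replicate 2 was at 19.4 CPM, and the other 23 libraries were between 0 and 1.81 CPM. Myh6, the main myosin heavy chain of the adult mouse heart, was at 364.8 CPM in that library and at most 28.2 CPM in the others. The libraries with Cox6a2 above 0.5 CPM were celecoxib replicates 1, 2, 3 and 8, rofecoxib replicates 1 and 3 and control replicates 4 and 6. All of them had Myh6 above 8 CPM, and no other library did. Cardiac markers with no count in many libraries included Nppa, at 0 in 15 of 24, and Myl2, at 0 in 17 of 24. Their part in the Cox6a2 difference was not tested.

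**Figure D3:**
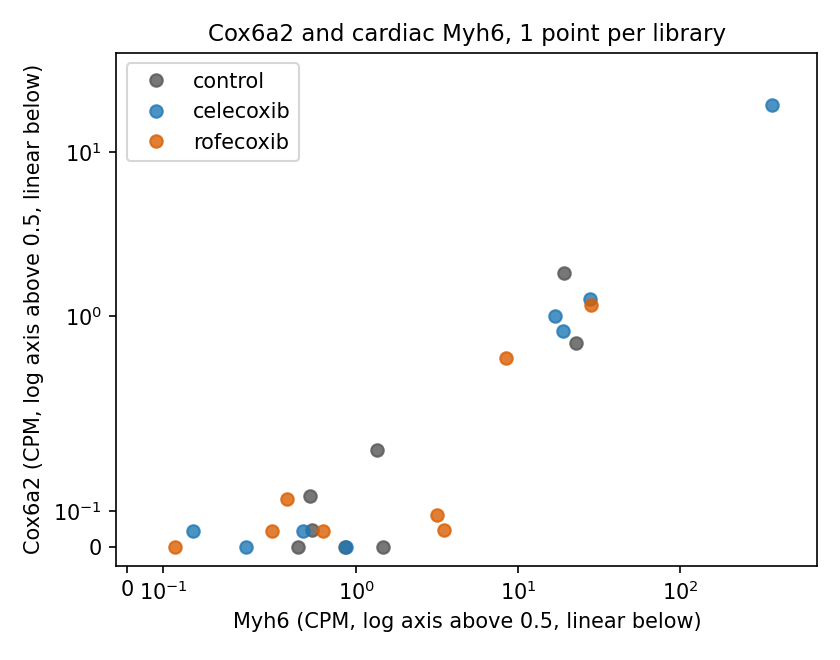
Cox6a2 against Myh6 in CPM, 1 point per library, on axes that are logarithmic above 0.5 CPM and linear below. The 8 libraries with Cox6a2 above 0.5 CPM are those with Myh6 above 8 CPM, and celecoxib replicate 2 lies far above the rest on both axes.

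Celecoxib and rofecoxib aortas were then compared directly, at doses of 100 and 50 mg/kg/day. With celecoxib 45 members were lower and 0 higher by edgeR, against 4.32% and 0.564% of all genes, 4.89% together. An unadjusted p under 0.05 was reached by 67 members on the lower and 2 on the higher side, against 15.1% and 7.94% of all genes. The lower members by adjusted p were 23 of complex I, 3 of complex II, 6 of complex III, 7 of complex IV and 6 of complex V. The median log2 difference was -0.36, and by complex it was -0.37, -0.61, -0.50, -0.35 and -0.25. The largest called falls were Uqcrfs1 at -0.66 (SE 0.18), Sdhd at -0.65 (SE 0.17), Sdha at -0.64 (SE 0.17), Uqcrq, a complex III subunit next to cytochrome b, at -0.63 (SE 0.16), and Cox5a at -0.63 (SE 0.17). Their adjusted p lay between 0.037 and 0.039. Uqcrfs1 ranged from 67.8 to 120 CPM with celecoxib (median 88.0) and from 81.4 to 198 with rofecoxib (median 141), and the groups overlapped. No member was separated between the drugs, beside 0.0413% of all genes with every celecoxib library lower and 0.0138% with every one higher.

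These calls sat near the threshold. Without celecoxib replicate 2, 3, 4 or 5, or without rofecoxib replicate 2, 3, 4 or 7, edgeR called 0 members and at most 0.0206% of all genes, and the median stayed between -0.31 and -0.40 over the 24 fits. The count was 22 without rofecoxib replicate 1, 61 without rofecoxib replicate 8 (60 lower and 1 higher), and 26, 24, 25 and 17 without control replicates 1, 2, 5 and 6. In the same order 1.65%, 13.7%, 3.25%, 3.06%, 3.35% and 2.49% of all genes were called. In the fit of these groups alone edgeR called 0 members and 0 of all genes, with 65 members (82.3%) at an unadjusted p under 0.05, beside 19.9% of all genes. With no filter on low counts it also called 0 of either, with 67 members (80.7%) beside 17.4%. DESeq2 called 56 members and 9.77% of all genes, and limma voom 57 and 5.93%.

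Brown adipocyte markers moved with these differences. Their level was 4.38 ± 0.59 in control, 4.06 ± 0.57 in celecoxib and 5.07 ± 0.81 in rofecoxib aortas (mean log2 CPM of 12 markers, SD, n = 8). The summed markers ranged from 342 to 1303, 268 to 688 and 524 to 1942 CPM in these groups. Of the 12 markers, 2 were called higher with rofecoxib than in control, and 5 lower with celecoxib than with rofecoxib. Of all genes 3.88% and 4.32% were called in these directions. Ucp1 was at 57.7 to 602 CPM in control (median 158), 11.1 to 215 with celecoxib (median 115) and 151 to 986 with rofecoxib (median 438). Control replicates 4 and 7 and rofecoxib replicate 7, the extreme libraries for the complexes, were also the extreme ones for Ucp1 in their groups. On the log2 scale Ucp1 was at 1.19 (SE 0.50, edgeR adjusted p = 0.13) with rofecoxib and -0.77 (SE 0.50, adjusted p = 0.50) with celecoxib, against the same controls, and it was -1.96 (SE 0.51, adjusted p = 0.038) between the drugs.

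Across the 24 libraries, log2 CPM of 5 subunits, 1 from each complex, was compared with that of Ucp1 (5 correlations, Benjamini-Hochberg adjusted). Pearson's r was 0.92 for Ndufb8, 0.88 for Sdhb, 0.85 for Uqcrc2, 0.90 for Cox4i1 and 0.85 for Atp5a1. Spearman's rho was 0.92, 0.85, 0.81, 0.86 and 0.90, each with a permutation p of 1e-05, the smallest that the permutations can give, and an adjusted p of 1e-05. The permutations ran over all 24 libraries and not within groups, so these p also take in differences between the groups. Without the 2 libraries farthest from the Ucp1 median, celecoxib replicate 5 and rofecoxib replicate 7, r was 0.94, 0.90, 0.87, 0.90 and 0.93. Within the 8 control libraries, r was 0.97, 0.98, 0.92, 0.98 and 0.96, and within rofecoxib 0.92, 0.93, 0.93, 0.90 and 0.95. Within celecoxib it was 0.92, 0.82, 0.76, 0.90 and 0.57, the last with an exact permutation p of 0.13. Spearman's rho within celecoxib was 0.95, 0.74, 0.67, 0.83 and 0.67, with adjusted permutation p of 0.0055, 0.077, 0.083, 0.038 and 0.083. The values share library composition, so they describe these libraries.

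**Figure D4:**
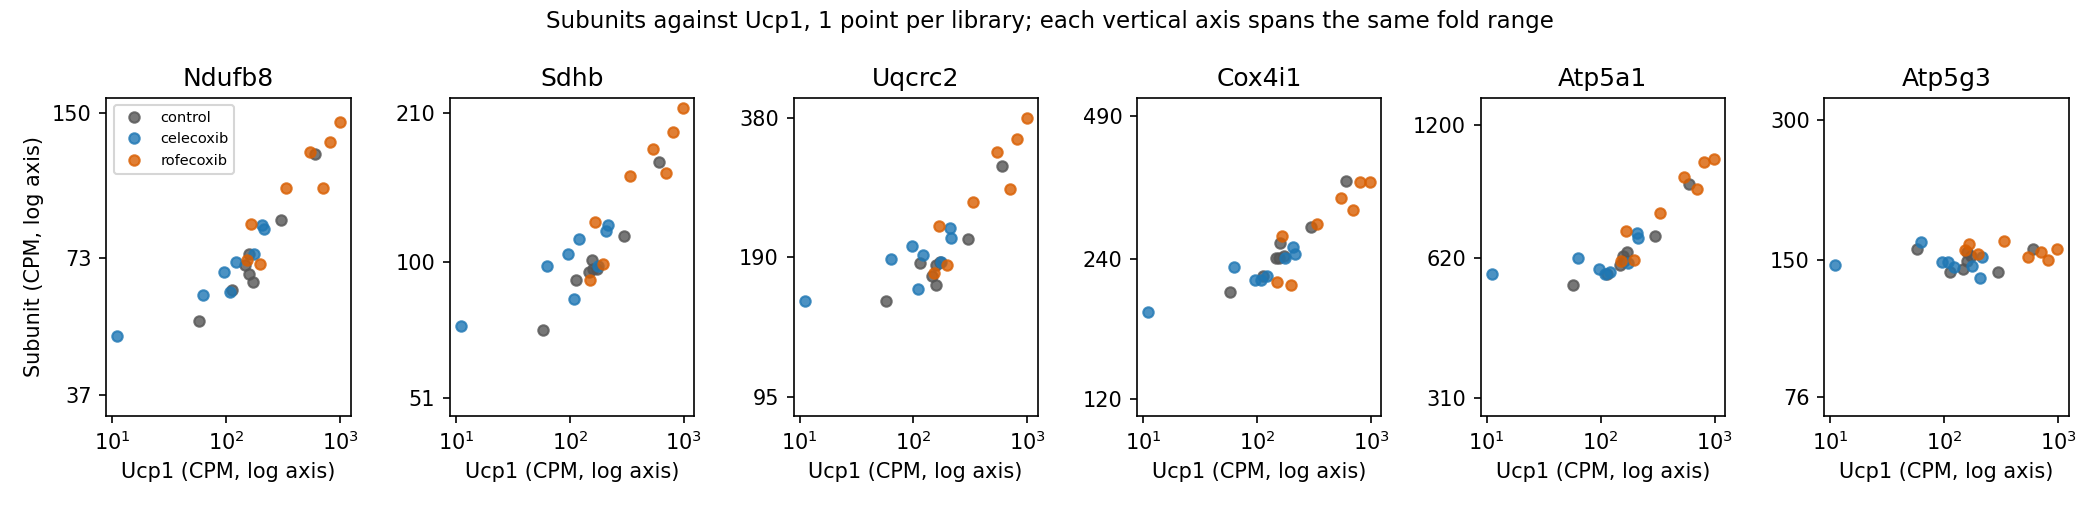
CPM of 5 subunits, 1 from each complex, and of Atp5g3 against CPM of Ucp1 on log axes, 1 point per library, with vertical axes of equal fold range. The 5 subunits rise with Ucp1 within and across the groups, and Atp5g3 lies flat between 137 and 165 CPM.

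The slope of each member on the brown adipocyte level was fitted within the groups by edgeR. That level is the mean of Ucp1, Cidea, Elovl3, Dio2, Otop1, Kcnk3, Prdm16, Ebf2, Fabp3, Cpt1b, Pank1 and Acot11, none of them a member. The slope was above 0 at an adjusted p under 0.05 in 67 of 80 members and below 0 in 1, against 8.84% of all genes with a rising slope. The median slope was 0.29, 0.51, 0.40, 0.34 and 0.18 log2 units per unit of the marker level from complex I to V. The steepest slopes among members were those of Uqcrfs1 at 0.53, Ndufa10 at 0.52, Sdhd at 0.51, Sdhb at 0.51 and Uqcrq at 0.51. Outside the members and the markers, the muscle and brown fat isoforms Cox7a1 and Cox8b had slopes of 1.34 and 1.17. At the other end were Ndufa11 at 0.04, Ndufb2 at 0.07, Ndufa13 at 0.09, Cox7a2l at 0.06, Atp5g2 at 0.08, Cox4i2 at -0.09, Atp5g3 at -0.02, Atp5j at -0.02 and Atp5g1 at -0.12. Atp5g1 was the member whose slope was called below 0. Cox4nb, which is no chain subunit, was at 0.01.

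With the brown adipocyte level as a covariate, 0 members were called for rofecoxib against control by edgeR, beside 1.03% of all genes. An unadjusted p under 0.05 was reached by 39 members on the higher side and by Cox7a2l on the lower side, 50.0% of the members beside 20.3% of all genes. The median log2 difference fell from 0.33 to 0.12, with 73 of 80 above 0. By complex the median went from 0.32 to 0.12 in I, from 0.49 to 0.13 in II, from 0.40 to 0.15 in III, from 0.33 to 0.09 in IV and from 0.28 to 0.11 in V. The members with the smallest p were then Ndufa11 at 0.23 (SE 0.06, adjusted p = 0.050), Atp5j2 at 0.26 (SE 0.07, adjusted p = 0.058) and Ndufc1 at 0.21 (SE 0.05, adjusted p = 0.058). Sdhc and Uqcrc1 were at -0.0014 and 0.0040, both with an SE of 0.06. For celecoxib against control the median became 0.06 with 65 of 80 above 0, so its sign turned, and 0 calls by edgeR, beside 0.0206% of all genes. At an unadjusted p under 0.05 stood 12 members (15.0%), near the 15.7% of all genes. Between the drugs it became -0.06 with 0 calls, and 0 of all genes were called. The 5 members at an unadjusted p under 0.05 (6.25%) were below the 11.1% of all genes. The marker level came from the same libraries and differed between the groups.

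**Figure D5:**
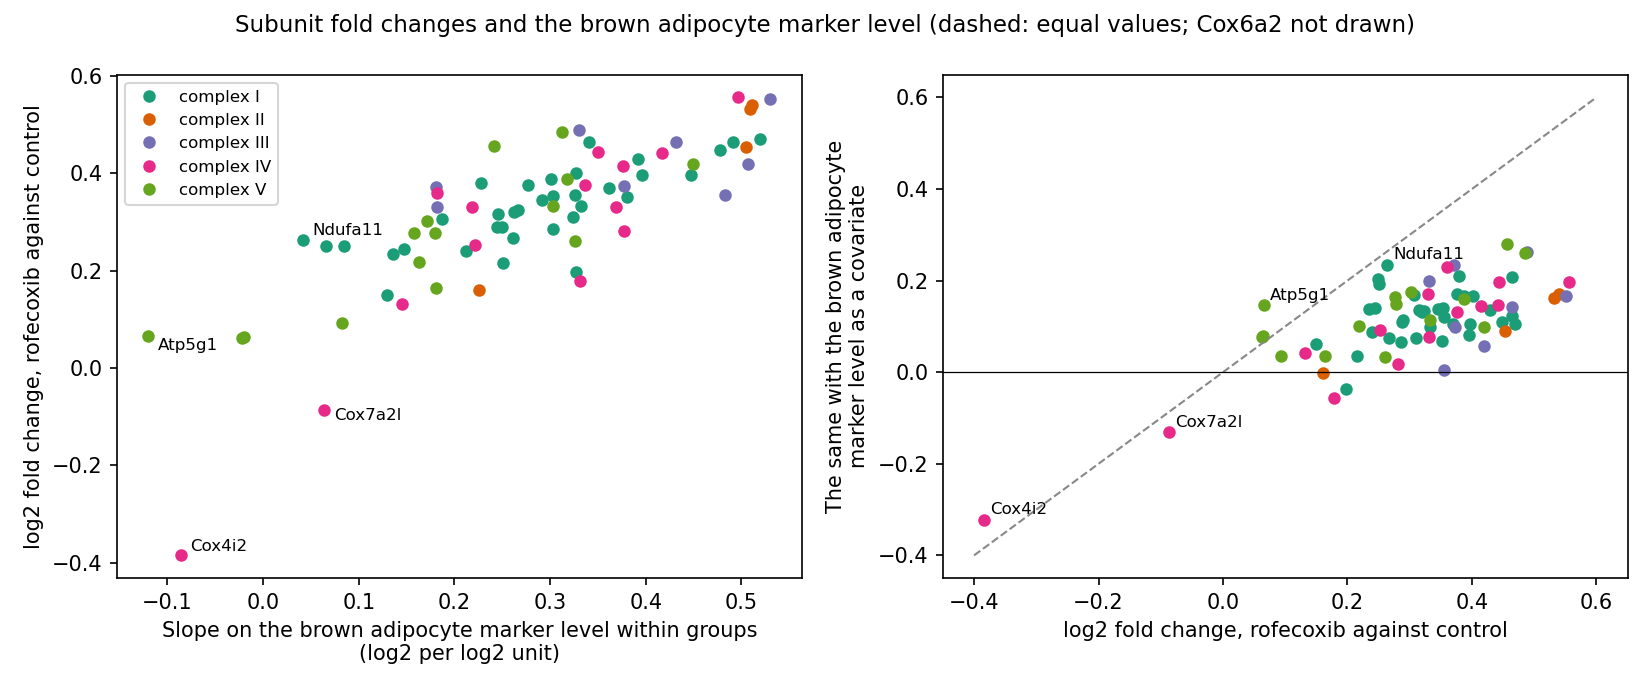
Left, log2 fold change of each subunit for rofecoxib against control over its slope on the brown adipocyte level within groups. Right, the fold change with that level as a covariate over the fold change without it, with a dashed line at equal values. Subunits with steep slopes lie far below the line, and Ndufa11 lies close to it. The slope and the covariate fold change come from the same fit. The distance from the line therefore follows largely from the slope and the group difference in marker level, and is no separate observation.

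Markers of other cell types were counted beside these. General adipocyte markers rose in 4 of 17 with rofecoxib, endothelial markers in 3 of 12, Schwann cell markers in 1 of 8, and macrophage and neutrophil markers in 1 of 12. Of all genes 3.88% were called higher. The levels of these lists were 0.80, 0.37, 0.70 and 0.44 higher than in control on the log2 scale. Schwann cell markers summed to 750.8 CPM in rofecoxib replicate 5 against a group median of 197.8. Between the drugs 11 of 17 general adipocyte, 10 of 12 macrophage and neutrophil and 5 of 8 Schwann cell markers were lower with celecoxib, and 0 of 12 endothelial markers. Of all genes 4.32% were called lower. The levels of these lists differed by -1.03, -0.95, -1.20 and -0.28 on the log2 scale, beside the 45 subunits lower with celecoxib. With rofecoxib against control smooth muscle markers fell in 1 of 14, with a level difference of -0.17, and fibroblast markers in 2 of 10. In that comparison 3.06% of all genes were called lower. The part of these lists in the subunit differences was not tested.

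Subunits that the symbol rule left out were measured beside the members. With rofecoxib Cox8b, the muscle and brown fat isoform of complex IV subunit VIII, was 0.81 higher on the log2 scale (SE 0.36, edgeR adjusted p = 0.15), which did not pass the test. Cox7a1 was at 0.95 (SE 0.41, adjusted p = 0.13), and Ndufa4l2, a hypoxia-induced paralogue of Ndufa4, at 0.07 (SE 0.16). Of 9 chain genes with other names, 5 rose with rofecoxib and 0 with celecoxib, beside 3.88% and 0.00688% of all genes. Usmg5, a small subunit of the ATP synthase, went from 36.4 ± 3.16 to 48.9 ± 7.63 CPM (log2 fold change 0.43, SE 0.08, adjusted p = 0.0063). Ndufab1, the acyl carrier protein that is part of complex I, rose by 0.42 (SE 0.12), 2010107E04Rik, now Atp5mpl, by 0.34 (SE 0.09), Cycs, cytochrome c, by 0.49 (SE 0.15), and Etfdh, which passes electrons from fatty acid oxidation to ubiquinone, by 0.605 (SE 0.18). Cyc1, the cytochrome c1 of complex III, was lower with celecoxib than with rofecoxib, at -0.62 (SE 0.16, adjusted p = 0.037).

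Genes that build or serve the chain were counted by lists. Of all genes 3.88% were called higher with rofecoxib than in control and 3.06% lower. Of 44 assembly factors, 8 rose with rofecoxib, 0 fell and the median was 0.23. Acad9, a complex I assembly factor related to acyl-CoA dehydrogenases, rose by 0.27 (SE 0.06, edgeR adjusted p = 0.0095), Ndufaf4 by 0.24 (SE 0.05) and Foxred1 by 0.28 (SE 0.08). Mitochondrial ribosomal proteins, which translate the subunits encoded by the mitochondrial genome, rose in 10 of 32, with Mrps10 at 0.37 (SE 0.07). Of the list of mitochondrial carriers and channels, which also holds import proteins, prohibitins and chaperonins, 3 of 19 rose, among them the ADP/ATP carrier Slc25a5 at 0.22 (SE 0.06). No tricarboxylic acid cycle gene of 16 was called by edgeR with rofecoxib, although 13 had an unadjusted p under 0.05 and the median was 0.39. Between the drugs 11 of the 16 were lower with celecoxib, beside 4.32% of all genes, with Idh3a at -0.82 (SE 0.21). None of these lists had a call with celecoxib against control.

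Of 22 regulators of mitochondrial biogenesis 4 rose with rofecoxib, beside 3.88% of all genes, 0 fell, and the median was 0.01. Ppargc1b, a coactivator of mitochondrial genes, rose by 1.28 on the log2 scale (SE 0.36, edgeR adjusted p = 0.035). Ppara, a fatty acid receptor, rose by 1.26 (SE 0.36), Esrrg, an oestrogen-related receptor, by 0.92 (SE 0.25), and Tfb2m, a mitochondrial transcription factor, by 0.17 (SE 0.05). Ppargc1b, Ppara and Esrrg were low in control, at means of 1.81, 1.43 and 1.70 CPM. In that order 4, 3 and 6 of the 8 rofecoxib libraries were above every control. The genes of the factors whose motifs were searched were at -0.0053 (SE 0.06) for Nrf1, 0.02 (SE 0.04) for Gabpa, -0.17 (SE 0.06, adjusted p = 0.057) for Yy1 and 0.33 (SE 0.13, adjusted p = 0.096) for Esrra. None of those 4 was called with rofecoxib against control. Esrra was lower with celecoxib than with rofecoxib, at -0.49 (SE 0.13, adjusted p = 0.039).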

How the data were processed

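RNA from the thoracic aortas was sequenced from polyA-selected TruSeq libraries with 13 cycles of PCR, made over 3 days, per the labels' protocols. The authors deposited raw read counts per Ensembl gene for 24 libraries. The tools CASAVA 1.8.1 and STAR 2.5.1b and the build mm9 stand in the submitters' processing notes. How reads were assigned to genes, with which annotation and strand setting, is not given in the sources used here. Totals of the deposited counts were nearly equal, and no gene of the mitochondrial genome was analysed here (0 in the table).

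Counts were fitted with edgeR 4.0.16 in R 4.3.3 (TMM scaling, default filter on low counts, quasi-likelihood test, Benjamini-Hochberg adjustment over 14528 genes at 0.05), with all 24 libraries and 1 mean per group. CPM used TMM-scaled totals and a prior count of 2 on the log2 scale. RPKM used exon lengths of GENCODE M21. Ndufa4 was counted in complex IV, and 1 member that is in all counts is not reported here on its own. The test was checked on simulated counts for rofecoxib against control. It recovered 26% of the genes changed 1.25-fold, 68% of those changed 1.5-fold and 82% of those changed 2-fold. No library pair within a group matched within counting noise (84 pairs). Members and lists were chosen with earlier results of these data known. Named members were the 3 smallest p per complex and comparison, the highest and lowest control CPM per complex, tissue isoforms and the 5 subunits compared with Ucp1; in other lists, up to 3 with the smallest p. Genes named beside these, namely Ndufv1, Ndufv2, Ndufa10, Ndufa8, Ndufa12, Ndufa13, Ndufb9, Ndufs5, Atp5c1, Atp5j, Atp5o, Foxred1 with rofecoxib, Etfdh, Cycs with rofecoxib, Tfb2m, Nrf1, Gabpa, Yy1 and Esrra with rofecoxib, were chosen after their values were seen. Alternatives were other scalings and filters, DESeq2 1.42.0, limma 3.58.1 voom, subsets of libraries and covariates. The fit with brown adipocyte and cardiac muscle covariates and the slope on the brown adipocyte level were chosen after seeing the data. Antisense or overlapping genes cannot be told apart without a stated strand setting.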

Additional observations from a re-analysis of the deposited data

Results flagged for a closer look

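Control replicate 4 was set apart from the other 7 control libraries by a gap to the nearest of them that passed Dixon's critical value for 8 samples. This held for the complex V level at 7.17 (others 6.74 to 6.94) and for Atp5a1 at 898, Atp5b at 1490, Atp5f1 at 183, Atp5j2 at 112, Cox6a1 at 326, Cox6a2 at 1.81, Sdhb at 164, Sdhc at 157, Sdhd at 147, Uqcrc2 at 298 and Uqcrq at 105 CPM. Ucp1 was also set apart in that library, at 602 CPM against 57.7 to 299 in the others. Cox6a2 in celecoxib replicate 2, at 19.4 CPM, and Uqcr11 in rofecoxib replicate 7, at 106 CPM (others 59.5 to 78.5), were set apart in the same way. Such gaps were found in 15 of 150 groups of values tested (10.0%), where chance gives about 1 in 20, and the genes share libraries.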

How the results depend on the processing

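Members called for rofecoxib against control numbered 25, and 22 with RLE size factors, 25 with a mean of at least 1 CPM, 51 by library size alone, 14 without a filter, 46 with DESeq2, 64 with voom, 16 in these groups alone, 49 with a term for replicates 1 to 4 against 5 to 8, and 0 and 2 within these sets. In the same order 6.94%, 6.88%, 7.77%, 9.75%, 2.22%, 12.5%, 16.9%, 6.3%, 11.9%, 0.286% and 2.78% of all genes were called. With the brown adipocyte level as covariate there were 0, with skeletal muscle added 0, with cardiac muscle added 1, beside 1.03%, 0.847% and 1.0% of all genes. The medians of all members and of complexes I, II and V were then 0.12, 0.12, 0.13 and 0.11 in each of these fits. For celecoxib against control the count was 0, and 1 with the replicate term and within replicates 5 to 8.

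Between the drugs the count was 45, and 0 without a filter, in these groups alone, within replicates 5 to 8 and in the 3 covariate fits. The fits with 0 members also called 0 of all genes. Within replicates 1 to 4 it was 52 (51 lower and 1 higher), beside 14.1% of all genes. It was 41 with RLE size factors, 46 with a mean of at least 1 CPM, 51 by library size alone and 53 with the replicate term. Beside these stood 4.83%, 5.29%, 5.21% and 6.46% of all genes. DESeq2 and voom called 56 and 57, beside 9.77% and 5.93%. With the brown adipocyte covariate the medians of all members and complexes I to V were -0.0625, -0.0662, -0.0608, -0.0780, -0.0411 and -0.0759, with skeletal muscle added -0.0629, -0.0663, -0.0607, -0.0781, -0.0413 and -0.0759, and with cardiac muscle added -0.0585, -0.0630, -0.0612, -0.0737, -0.0408 and -0.0762. The correlation of Atp5a1 with Ucp1 within celecoxib libraries alone was 0.57.

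Leaving out 1 library gave 0 to 0, 6 to 64 and 0 to 61 calls in the 3 comparisons, and medians of -0.07 to 0.03, 0.27 to 0.39 and -0.40 to -0.31. The share of all genes called was 2.62% and 12.3% in the fits with 6 and 64 calls. Between the drugs it was at most 0.0206% in the fits with 0 calls and 13.7% in that with 61. The causes were not tested.

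The groups share replicate numbers, which were not taken as pairs since no label ties them and same-numbered deviations correlated from -0.303 to 0.56; pairs numbered 1, 4 and 5 were all above 0, and 7 of 24 libraries correlated best with their own number. With the replicate block 30 members were called for rofecoxib against control, 0 for celecoxib against control and 0 between the drugs. In the same order 8.17%, 0.186% and 0% of all genes were called. No setting reversed a called value. Library totals were nearly equal, so depth does not rank the libraries; Cox4i2, Cox6a2 and Cox6b2, with 882, 577 and 614 reads in all, had the fewest reads of the chain subunits tested.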
